A study of Mus musculus with 8 samples.

Results

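The genes described here are 38 genes that type I interferon induces in mouse cells, chosen as a set by gene symbol. All 38 were among the 34432 genes of the deposited table, and all 38 passed the filter on low values. They were grouped by role into 18 antiviral effectors, 5 sensors of nucleic acid, 6 genes of control and feedback, and 9 other interferon-induced genes. Expression was measured by RNA sequencing in bone marrow-derived macrophages, which were differentiated in culture from bone marrow for 7 days and left untreated. The double knockout (DKO, 4 libraries) was Cdk8 flox/flox with the recombinase Vav-iCre and was Cdk19null, and the control (VAV-cre, 4 libraries) carried a Vav-driven Cre. Both groups therefore carry a recombinase that the Vav promoter drives in blood-forming cells, whereas Cdk19null is not tied to a cell type. The labels give no strain, age or sex of the mice and do not say whether the 4 libraries of a group came from separate animals, so p-values measure the spread between libraries.

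Type I interferons act through the receptor chains Ifnar1 and Ifnar2 and the kinases Jak1 and Tyk2. These activate the factor ISGF3, which includes Stat2 and Irf9 and binds interferon-stimulated response elements in the promoters of its target genes. Macrophages are known to keep many of these genes active at rest through small amounts of their own interferon. The kinases Cdk8 and Cdk19 are paralogues that belong to the Mediator complex, which connects transcription factors to RNA polymerase.

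Recovered reads numbered 17856715 to 21353207 per library. Double knockouts 1 and 2, and double knockouts 3 and 4, were closer to each other than to the remaining double knockouts. Cdk19 had normalized read counts of 396, 392, 361 and 342 in double knockouts 1 to 4, against 1299, 1295, 1530 and 1682 in controls 1 to 4 (log2 fold change -1.95, SE 0.10, adjusted p = 2.95e-08). Cdk8 had 429, 309, 357 and 294 in double knockouts 1 to 4, against 466, 449, 408 and 432 in controls 1 to 4, with groups that overlapped (log2 fold change -0.35, SE 0.12, adjusted p = 0.0374). The call for Cdk8 was lost without double knockouts 2, 3 or 4 and without controls 1, 2 or 4 (adjusted p = 0.0551 to 0.104). Counting changes of the processing too, it was lost under 12 of 19 alternatives. Reads of Cdk8 from exons outside the floxed part are counted too, so its total does not check the deletion. Of 15 macrophage markers, 9 rose (60.0%) and 5 fell (33.3%), beside 22.9% and 23.8% of all tested genes. Their median log2 fold change was 0.34. The list summed to 422475 to 449051 in double knockouts and 437771 to 470529 in controls. Adgre1, a marker picked after its values were seen, went against most of the list. It had 25307, 26704, 21998 and 23417 in double knockouts 1 to 4. In controls 1 to 4 Adgre1 had 27318, 29483, 31812 and 36525. Of 11675 genes tested with limma across the whole table, 2671 rose and 2773 fell, together 46.6%.

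The 38 genes did not move as a block. In bulk RNA such as this, fewer cells of a type and less RNA per cell cannot be told apart. Of the 38, 14 rose and 4 fell in the double knockout, and 20 did not pass the test. These 18 calls are 47.4% of the set, next to the 46.6% called among all genes tested. By direction, 36.8% of the set rose and 10.5% fell, beside 22.9% and 23.8% of all genes. The changes were small: log2 fold changes lay between -0.48 for Mx1 and 0.89 for Rsad2, and not 1 member reached a 2-fold change, called or not. Among all tested genes, 10.9% were called and also changed at least 2-fold. The median log2 fold change was 0.089 over the members and 0.0051 over all genes. Groups did not overlap for 14 of 38 members, beside 42.9% of all tested genes. Of these, 10 were higher, beside 21.2% of all genes, and 4 were lower, beside 21.7%.

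**Figure D1:**
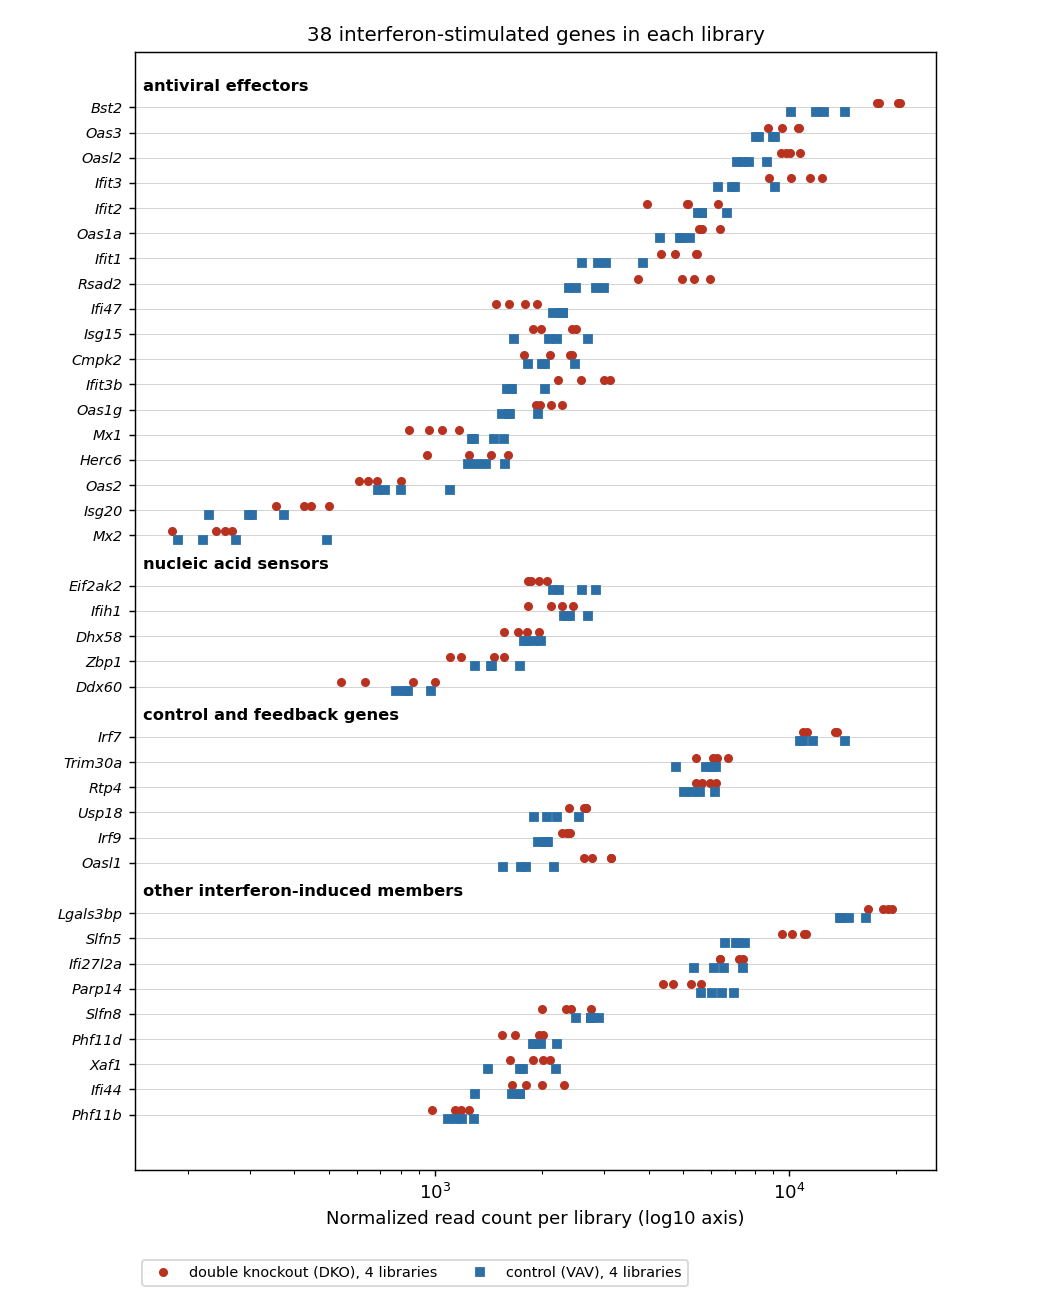
Normalized read count (x axis, log10) of each of the 38 genes in the 4 double knockout libraries (circles, upper row of each gene) and the 4 control libraries (squares, lower row), sorted by control mean within each role. Bst2 lies apart between the groups at the top of the effectors, while Irf7 at 10927 to 13630 in double knockouts lies within the control range of 10694 to 14396.

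The interferons themselves were close to absent from the reads of both genotypes. Of 18 type I interferon genes, which encode the ligands of the pathway, 16 had no read in any library. A count of 0 allows up to 3 reads among the 162268744 reads of all libraries, for counting error only. Ifnb1, the interferon beta gene, had 2 reads in all double knockouts together and 2 in all controls together. Ifnz had 5 reads in double knockouts and 0 in controls, and with so few reads no fold was computed. The 38 members were nevertheless read in these untreated cells, with normalized read counts from 180 for Mx2 in double knockout 4 to 20466 for Bst2 in double knockout 3.

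Antiviral effectors included the largest rise among the 38, that of Rsad2. Of 18 effectors, 9 rose (50%) and 2 fell (11.1%), beside 22.9% and 23.8% of all tested genes, and their median was 0.23 on the log2 scale. Rsad2 (viperin, an enzyme that makes a chain-terminating nucleotide) had 5952, 4980, 5383 and 3726 in double knockouts 1 to 4, against 2985, 2379, 2499 and 2844 in controls 1 to 4. Every double knockout lay above every control, a 1.87-fold rise of the mean (log2 fold change 0.89, SE 0.13, adjusted p = 0.000205).

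Bst2 (tetherin, a membrane protein that holds budding virions at the cell surface) had 20292, 17671, 20466 and 17895 in double knockouts 1 to 4, against 14337, 12490, 11886 and 10083 in controls 1 to 4. The groups did not overlap, and the mean rose 1.56-fold (log2 fold change 0.65, SE 0.098, adjusted p = 0.00021). Per kilobase of exon, the mean level of Bst2 was 21130.4 in double knockouts and 13509 in controls. That of Ifi27l2a was 14736 in double knockouts and 13730.5 in controls. The level of Bst2 per length was thus the highest of the members in double knockouts, while in controls the levels of these 2 genes were close.

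Ifit1, which binds foreign RNA by its end, had 5465, 4744, 5440 and 4328 in double knockouts 1 to 4, against 3855, 2887, 3033 and 2591 in controls 1 to 4. The lowest double knockout lay above the highest control, and the mean rose 1.62-fold (log2 fold change 0.70, SE 0.12, adjusted p = 0.000531). Ifit3b, a close copy of Ifit3, had 3003, 2579, 3106 and 2223 in double knockouts 1 to 4, against 2036, 1589, 1643 and 1633 in controls 1 to 4. These groups did not overlap either (log2 fold change 0.66, SE 0.11, adjusted p = 0.00057). Ifit3, a partner of Ifit1 in the human protein complex, rose as well (log2 fold change 0.55, SE 0.12, adjusted p = 0.00406), with double knockout 4 below control 1. Transcripts of Ifit3 and Ifit3b are hard to tell apart by sequence: 61.8% of the 31-base words of Ifit3 occur in another gene, and 55.3% of those of Ifit3b. The division of reads between the pair is therefore uncertain.

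Oasl2, a member of the oligoadenylate synthetase-like family, had 10737, 9751, 10047 and 9446 in double knockouts 1 to 4, against 8622, 7386, 7700 and 7101 in controls 1 to 4. All double knockouts stood above all controls (log2 fold change 0.38, SE 0.071, adjusted p = 0.001). The oligoadenylate synthetases make a messenger that switches on RNase L. Oas1a and Oas1g also rose (0.26 and 0.31 on the log2 scale, adjusted p = 0.0119 and 0.0118), and they share 68.8% and 55.1% of their 31-base words with other genes, mostly with each other. Oas3 had a log2 fold change of 0.20 (adjusted p = 0.0531) and passed without double knockout 4 (adjusted p = 0.0175) and without control 1 (adjusted p = 0.0417). It also passed with DESeq2 (adjusted p = 0.035). Oas2 had -0.25 (adjusted p = 0.17). Isg20, an exonuclease, rose by 0.53 on the log2 scale (adjusted p = 0.015).

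Ifi47 and Mx1 were the effectors that fell. Ifi47, a GTPase of the immunity-related family, had 1935, 1795, 1614 and 1481 in double knockouts 1 to 4, against 2297, 2298, 2251 and 2151 in controls 1 to 4. Every double knockout lay below every control, a 1.32-fold fall (log2 fold change -0.41, SE 0.082, adjusted p = 0.0018). Mx1, a dynamin-like GTPase, had 1169, 960, 1044 and 843 in double knockouts 1 to 4, against 1468, 1273, 1282 and 1564 in controls 1 to 4. These groups did not overlap (log2 fold change -0.48, SE 0.11, adjusted p = 0.00322). Its paralogue Mx2 was lower in level, with 254, 241, 266 and 180 in double knockouts 1 to 4, against 494, 221, 188 and 274 in controls 1 to 4. Control 1 was far above the other 3 controls, which covered nearly the range of the double knockouts (log2 fold change -0.23, SE 0.26, adjusted p = 0.495), and without control 1 its log2 fold change was 0.051. The GENCODE annotation lists Mx2 as a polymorphic pseudogene, and the strain of these mice is not given.

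The ubiquitin-like modifier and its ligase did not pass the test. Isg15 had 2492, 1994, 2428 and 1882 in double knockouts 1 to 4, against 2698, 2210, 2091 and 1673 in controls 1 to 4, with all double knockouts within the range of the controls. Its log2 fold change was 0.031 with an interval of -0.27 to 0.33 (95%, limma). Herc6, the main Isg15 ligase in mice, had a log2 fold change of -0.096 with an interval of -0.41 to 0.22.

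Promoter sequence was read for the 29 members present in the RefSeq promoter table (GRCm38.p6), from 250 bases before to 50 bases after each start. The motif GAAANNGAAA, the core of an interferon-stimulated response element, was searched on both strands. It occurred in 16 of 29 members (55.2%), against 3.99% of all genes of the table. It was present in 8 of 13 members that rose, in 1 of 2 that fell and in 7 of 14 that did not pass the test. The motif TTCNNNGAA, the core of a STAT dimer site, which reads the same on both strands, occurred in 5 of 29 members, against 9.55% of all genes, and it overlapped GAAANNGAAA at 1 place, in Bst2. The stretches below, each of 100 bases before the start and in the direction of the gene, show the motif (capitals, in either orientation) in 6 effectors that rose and in Isg15 and Oas3, which did not pass. The bases at NN differ between some of these genes. The genes shown were picked among members with a match, and a link of the motif to the calls was not tested. The stretches of Ifit3 and Ifit3b are identical. In Eif2ak2, which fell, the match lies 19 bases after the start.
Rsad2, chr12:26456518-26456617, minus strand: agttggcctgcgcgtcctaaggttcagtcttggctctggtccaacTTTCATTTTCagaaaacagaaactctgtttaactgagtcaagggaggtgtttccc
Bst2, chr8:71537545-71537644, minus strand: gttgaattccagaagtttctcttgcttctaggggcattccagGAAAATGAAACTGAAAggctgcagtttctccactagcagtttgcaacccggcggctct
Ifit1, chr19:34640749-34640848, plus strand: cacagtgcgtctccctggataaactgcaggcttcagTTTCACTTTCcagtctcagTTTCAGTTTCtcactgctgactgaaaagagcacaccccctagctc
Ifit3, chr19:34583345-34583444, plus strand: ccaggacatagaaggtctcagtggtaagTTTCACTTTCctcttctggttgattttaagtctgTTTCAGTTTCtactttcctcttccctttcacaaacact
Ifit3b, chr19:34607741-34607840, plus strand: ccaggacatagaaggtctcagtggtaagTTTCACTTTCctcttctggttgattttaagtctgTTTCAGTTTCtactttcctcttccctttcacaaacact
Oas1a, chr5:120907526-120907625, minus strand: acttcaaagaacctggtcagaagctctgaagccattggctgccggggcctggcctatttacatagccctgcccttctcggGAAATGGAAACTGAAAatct
Isg15, chr4:156200836-156200935, minus strand: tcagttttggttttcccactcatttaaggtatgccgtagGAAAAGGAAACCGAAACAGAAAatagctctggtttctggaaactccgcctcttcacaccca
Oas3, chr5:120777680-120777779, minus strand: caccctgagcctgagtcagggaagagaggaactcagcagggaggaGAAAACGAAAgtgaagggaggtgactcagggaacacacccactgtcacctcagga

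Some members that lie side by side in the genome differed, and others did not: Oas1a and Oas1g both rose, as did Oasl1 and Oasl2, while neither Phf11b nor Phf11d passed the test. In the Ifit cluster on chromosome 19, Ifit2 (chr19:34550694-34576419, mm10) neighbours Ifit3 (chr19:34583531-34588731), and Ifit3b (chr19:34607970-34613401) and Ifit1 (chr19:34640871-34650009) follow. Ifit2 had 6295, 5131, 5170 and 3948 in double knockouts 1 to 4, against 6648, 5505, 5646 and 5679 in controls 1 to 4, with overlapping groups (log2 fold change -0.21, SE 0.12, adjusted p = 0.181). Without double knockout 1 it passed as lower (adjusted p = 0.0352). The ratio of Ifit1 to Ifit2 was between 0.868 and 1.10 in double knockouts and between 0.456 and 0.580 in controls, and that of Ifit3 to Ifit2 between 1.97 and 2.22 in double knockouts and between 1.11 and 1.37 in controls. Neither ratio overlapped between the genotypes. Ifit1bl1, an Ifit1-like gene between Ifit3 and Ifit3b that is not among the 38, was picked out after its values were seen. It had 799, 653, 576 and 478 in double knockouts 1 to 4, against 252, 194, 202 and 241 in controls 1 to 4 (log2 fold change 1.47, SE 0.16, adjusted p = 1.22e-05).

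Rsad2 (chr12:26442746-26456452) and Cmpk2 (chr12:26469204-26479837) lie head to head on chromosome 12. Cmpk2 encodes a mitochondrial nucleotide kinase that makes the substrate of viperin. Its values were 2434, 2111, 2407 and 1785 in double knockouts 1 to 4, against 2483, 2037, 2004 and 1825 in controls 1 to 4, with overlapping groups and a log2 fold change of 0.064 (95% interval -0.18 to 0.31). The ratio of Rsad2 to Cmpk2 was between 2.09 and 2.45 in double knockouts and between 1.17 and 1.56 in controls. In the Schlafen cluster on chromosome 11, Slfn5 (chr11:82951349-82964840) rose whereas Slfn8 (chr11:83002158-83020810) did not pass the test. The ratio of Slfn5 to Slfn8 was between 4.06 and 4.76 in double knockouts and between 2.57 and 2.63 in controls, without overlap. The ratio of Ifit3 to Ifit3b, which both rose, overlapped, between 3.69 and 4.13 in double knockouts and between 3.85 and 4.47 in controls. These pairs were chosen after their values were seen, and their ratios were not tested.

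**Figure D2:**
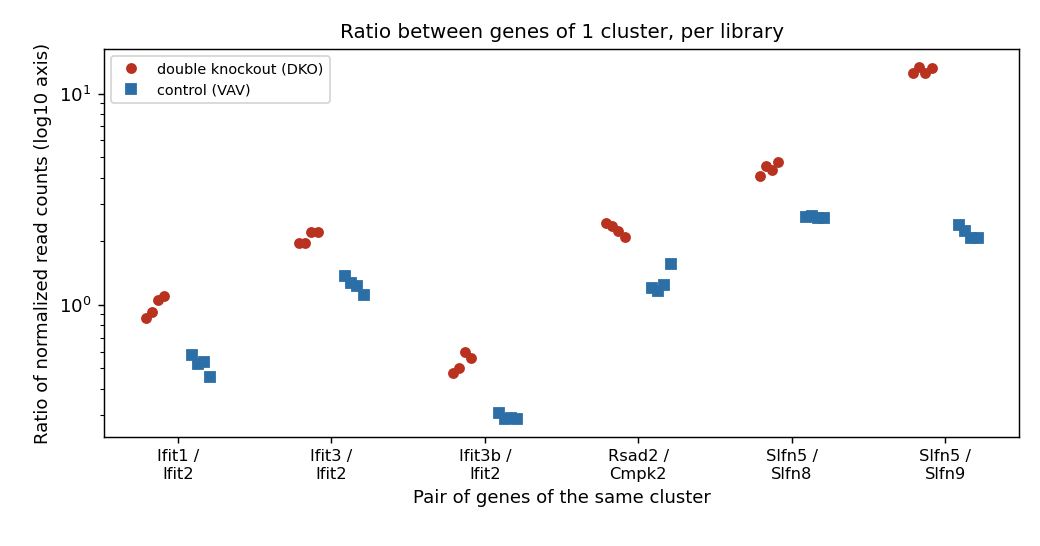
Ratio of normalized read counts (y axis, log10) of pairs of genes from the same cluster in the 4 double knockout (circles, left) and 4 control libraries (squares, right). The ratio of Ifit1 to Ifit2 lies between 0.868 and 1.10 in double knockouts and between 0.456 and 0.580 in controls, and the 6 pairs drawn, chosen after their values were seen, separate the genotypes.

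Of 5 sensors of nucleic acid, 1 fell (20.0%, beside 23.8% of all tested genes) and the other 4 did not pass the test. Their log2 fold changes lay between -0.34 and -0.09, with a median of -0.18. Eif2ak2, the kinase that double-stranded RNA activates and that stops translation, had 2062, 1959, 1864 and 1824 in double knockouts 1 to 4, against 2240, 2153, 2592 and 2849 in controls 1 to 4. Its groups did not overlap, and the mean fell 1.28-fold (log2 fold change -0.34, SE 0.090, adjusted p = 0.00821). Its adjusted p was 0.0504 once the closest libraries, double knockouts 1 and 2 and double knockouts 3 and 4, had been averaged.

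Ifih1, the sensor of long double-stranded RNA, had 2443, 2284, 2123 and 1829 in double knockouts 1 to 4, against 2357, 2313, 2398 and 2700 in controls 1 to 4. The groups overlapped (log2 fold change -0.18, SE 0.090, adjusted p = 0.131). Dhx58, a helicase that modulates Ifih1, had 1960, 1815, 1709 and 1563 in double knockouts 1 to 4, against 1992, 1903, 1806 and 1775 in controls 1 to 4. Double knockouts 1 and 2 lay within the control range (log2 fold change -0.089, SE 0.078, adjusted p = 0.38). Ddx60, a helicase, had 1000, 864, 632 and 542 in double knockouts 1 to 4, against 775, 823, 839 and 972 in controls 1 to 4. Double knockouts 3 and 4 lay below all controls and double knockout 1 above them (log2 fold change -0.20, SE 0.17, adjusted p = 0.355). Zbp1, a sensor of Z-form nucleic acid that can trigger cell death, had 1558, 1180, 1461 and 1102 in double knockouts 1 to 4, against 1739, 1435, 1447 and 1291 in controls 1 to 4, also with overlap (log2 fold change -0.16, SE 0.12, adjusted p = 0.296).

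Among control and feedback genes, 3 of 6 rose (50%, beside 22.9% of all tested genes) and the other 3 did not pass the test. Oasl1, which in mice restrains the translation of Irf7, had 3138, 2772, 3141 and 2626 in double knockouts 1 to 4, against 2158, 1801, 1751 and 1552 in controls 1 to 4. Every double knockout was above every control, and the mean rose 1.61-fold (log2 fold change 0.69, SE 0.099, adjusted p = 0.000152). Irf9, the DNA-binding subunit of ISGF3, had 2281, 2360, 2408 and 2348 in double knockouts 1 to 4, against 2040, 1949, 2067 and 2085 in controls 1 to 4. The groups did not overlap although the difference was small (log2 fold change 0.21, SE 0.056, adjusted p = 0.00965). Its adjusted p was 0.0589 once the double knockout pairs had been averaged.

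Usp18, which removes Isg15 from proteins and blocks the interferon receptor, had 2670, 2378, 2672 and 2621 in double knockouts 1 to 4, against 2540, 2200, 2072 and 1899 in controls 1 to 4. Control 1 lay among the double knockouts (log2 fold change 0.25, SE 0.087, adjusted p = 0.0312). Its call was lost without double knockouts 1, 3 or 4 (adjusted p = 0.0739, 0.0754 and 0.0689) and without controls 2, 3 or 4 (adjusted p = 0.0533, 0.0838 and 0.0691). It was also lost under plain empirical Bayes, with neither trend nor robust option (adjusted p = 0.0694). After averaging of the double knockout pairs its adjusted p was 0.11, and it lay between 0.00394 and 0.11 over all alternatives.

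Irf7, the interferon regulatory factor that amplifies the response, had 13630, 11236, 13426 and 10927 in double knockouts 1 to 4, against 14396, 11641, 10940 and 10694 in controls 1 to 4. All double knockouts lay within the range of the controls, and the log2 fold change was 0.049 with an interval of -0.18 to 0.28. Trim30a, a ubiquitin ligase that restrains inflammatory signalling in mice, had 6704, 6091, 6237 and 5463 in double knockouts 1 to 4, against 6063, 4788, 5812 and 6206 in controls 1 to 4 (log2 fold change 0.10, SE 0.089, adjusted p = 0.375). Rtp4, a restraint on the interferon response in mice, had 6183, 5680, 5957 and 5432 in double knockouts 1 to 4, against 6160, 5575, 5314 and 5037 in controls 1 to 4 (log2 fold change 0.076, SE 0.072, adjusted p = 0.41). Both overlapped between the genotypes.

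**Figure D3:**
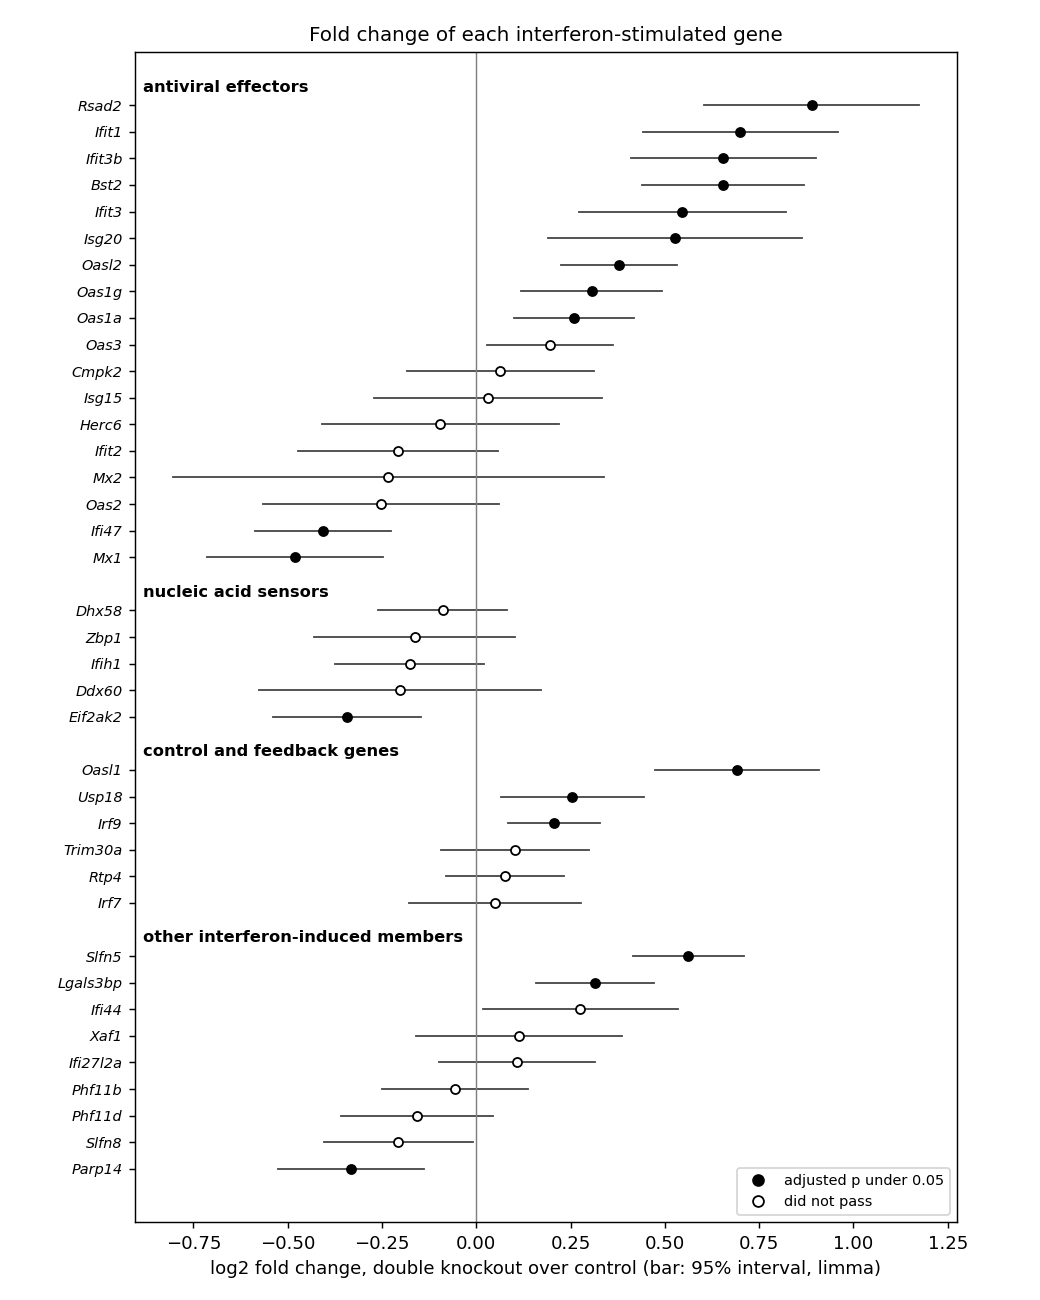
log2 fold change of each of the 38 genes, double knockout over control (x axis, points), with the 95% interval of limma (bars), by role; filled points passed at an adjusted p under 0.05. Effectors run from Rsad2 at 0.89 to Mx1 at -0.48, and all 5 sensors lie below 0 (Zbp1 at 0.0012 without double knockout 4 and control 1).

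Of the 9 other interferon-induced members, 2 rose (22.2%) and 1 fell (11.1%), beside 22.9% and 23.8% of all tested genes. Slfn5, a nuclear Schlafen protein, had 11137, 10974, 10190 and 9518 in double knockouts 1 to 4, against 7162, 6580, 7069 and 7483 in controls 1 to 4. The groups did not overlap, and the mean rose 1.48-fold (log2 fold change 0.56, SE 0.067, adjusted p = 3.31e-05). The antisense gene Slfn5os overlaps Slfn5 and holds 7.99% of the 31-base words of Slfn5. Without known use of strand, reads from that shared part cannot be told apart. Lgals3bp, a secreted glycoprotein that binds galectins, had 18954, 18319, 19534 and 16638 in double knockouts 1 to 4, against 16456, 14700, 13885 and 14027 in controls 1 to 4. All double knockouts were above all controls (log2 fold change 0.32, SE 0.072, adjusted p = 0.00372). Parp14, an ADP-ribosyltransferase, had 5609, 5278, 4681 and 4403 in double knockouts 1 to 4, against 6034, 5641, 6435 and 6978 in controls 1 to 4. It fell 1.26-fold, with double knockout 1 close to the lowest control (log2 fold change -0.33, SE 0.088, adjusted p = 0.00923).

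Ifi44 had 2310, 1997, 1801 and 1648 in double knockouts 1 to 4, against 1732, 1291, 1646 and 1729 in controls 1 to 4, with overlap (log2 fold change 0.28, SE 0.12, adjusted p = 0.0746), and it passed without double knockout 4 (adjusted p = 0.0387). Slfn8 had 2747, 2418, 2333 and 2002 in double knockouts 1 to 4, against 2743, 2501, 2755 and 2906 in controls 1 to 4, also with overlap (log2 fold change -0.21, SE 0.091, adjusted p = 0.0818), and it passed as lower without double knockout 1 (adjusted p = 0.0215). Its transcripts share 27.3% of their 31-base words with other genes, mostly with Slfn9. Phf11d had 2013, 1674, 1956 and 1545 in double knockouts 1 to 4, against 2205, 1886, 1985 and 1908 in controls 1 to 4 (log2 fold change -0.16, SE 0.092, adjusted p = 0.183). The 95% interval of the log2 fold change was -0.25 to 0.14 for Phf11b, -0.16 to 0.39 for Xaf1 and -0.098 to 0.31 for Ifi27l2a, around -0.057, 0.11 and 0.11. Phf11b shares 62.9% of its 31-base words with other genes, mostly with Phf11a.

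Within each genotype the members varied together by library. Double knockout 1 was the highest of its group for 29 of 38 members and double knockout 4 the lowest for 33, where double knockout 1 was the highest for 23.4% of all tested genes and double knockout 4 the lowest for 24.1%. Control 1 was the highest control for 27 of 38 members, beside 28.3% of all tested genes. The median deviation of the members from the group mean was 0.15 on the log2 scale in double knockout 1, -0.20 in double knockout 4 and 0.16 in control 1, whereas the median over all genes was within 0.01 of 0 in every library. These offsets exceed the median genotype difference of 0.09. Without double knockout 4 and control 1 together, 18 of 38 members rose and 4 fell, at a median of 0.21, an alternative chosen after seeing the data. Of all 11675 genes tested under that alternative, 2310 rose and 2482 fell, at a median of 0.0026.

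**Figure D4:**
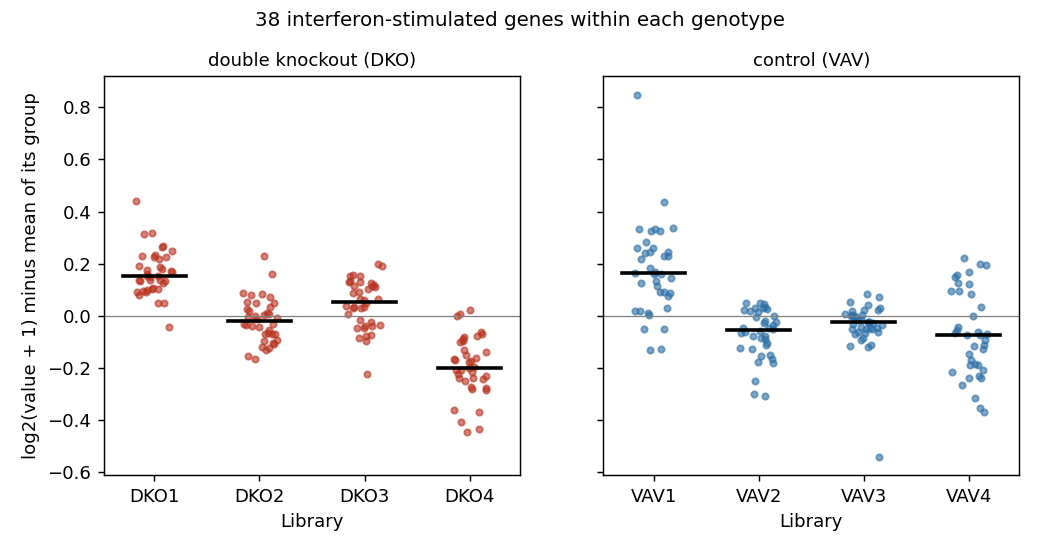
Deviation of each of the 38 genes from the mean of its genotype (y axis, log2(value + 1)) in the double knockout libraries (left) and the control libraries (right); bars mark the median over the 38 genes. Most genes lie above 0 in double knockout 1 and control 1 and below 0 in double knockout 4.

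The receptor chains moved apart. Ifnar1 had 2428, 2495, 2144 and 2163 in double knockouts 1 to 4, against 2873, 3114, 3379 and 3596 in controls 1 to 4. All double knockouts were below all controls, with means of 2307 in double knockouts and 3240.4 in controls (log2 fold change -0.49, SE 0.082, adjusted p = 0.000492). Ifnar2 had 4950, 4790, 4530 and 4533 in double knockouts 1 to 4, against 4220, 4194, 4165 and 3705 in controls 1 to 4. Here all double knockouts were above all controls (log2 fold change 0.21, SE 0.063, adjusted p = 0.0171), and without double knockout 1 the adjusted p was 0.051. The ratio of Ifnar1 to Ifnar2 was between 0.473 and 0.521 in double knockouts and between 0.681 and 0.971 in controls, without overlap.

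Among the kinases and the ISGF3 subunits, Stat2 (0.11, 95% interval -0.068 to 0.29), Jak1 (-0.018, -0.24 to 0.20) and Tyk2 (0.16, -0.0013 to 0.33) did not pass the test, given here as log2 fold changes with their intervals, although all double knockouts of Tyk2 lay above all controls.

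Of 17 measured genes that sense nucleic acid or microbial products and induce interferon, 2 rose and 2 fell (11.8% each, beside 22.9% and 23.8% of all tested genes). Cgas, the sensor of cytosolic DNA, fell 2.48-fold, with 323, 302, 306 and 317 in double knockouts 1 to 4, against 718, 715, 781 and 874 in controls 1 to 4 (log2 fold change -1.30, SE 0.093, adjusted p = 4.46e-07). Trim25, a ubiquitin ligase of RNA sensing, and Ikbke, a kinase that activates Irf3, rose (0.40 and 0.43 on the log2 scale, adjusted p = 0.000715 and 0.00182). Tlr4, the receptor for lipopolysaccharide, fell (log2 fold change -0.41, SE 0.12, adjusted p = 0.0167), and its call was lost without double knockout 3 (adjusted p = 0.0518) or 4 (adjusted p = 0.051). Sting1, Mavs and Irf3, which carry the signal on, did not pass the test (0.029, 0.15 and 0.060 on the log2 scale).

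Among 13 genes that hold the pathway in check, 1 rose, which was Usp18, and 3 fell. These are 7.69% and 23.1% of the list, beside 22.9% and 23.8% of all tested genes. Ptpn6, a phosphatase of cytokine signalling, and Trex1, an exonuclease that removes cytosolic DNA, fell by small amounts (-0.23 and -0.29 on the log2 scale, adjusted p = 0.00613 and 0.00824). Socs3, a feedback inhibitor of cytokine receptors, had 34.0, 27.1, 25.0 and 13.6 in double knockouts 1 to 4, against 135, 41.6, 37.7 and 49.2 in controls 1 to 4. It fell (log2 fold change -1.23, SE 0.42, adjusted p = 0.0314), but not without double knockouts 3 or 4 (adjusted p = 0.0539 and 0.0855) or without control 1 (adjusted p = 0.0822). Without control 1 its log2 fold change was -0.82.

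Interferon-induced genes outside the 38 included larger changes. Of 75 that passed the filter, 12 rose (16.0%) and 21 fell (28.0%), together 44.0% beside the 46.6% of all genes, and the median was -0.11 on the log2 scale. Slfn9, which lies between Slfn5 and Slfn8, had 893, 819, 818 and 718 in double knockouts 1 to 4, against 3004, 2951, 3414 and 3629 in controls 1 to 4, with means of 812 in double knockouts and 3249 in controls (log2 fold change -2.0, SE 0.089, adjusted p = 8.07e-09). Cxcl10, a chemokine that attracts T cells, had 138, 117, 162 and 86.7 in double knockouts 1 to 4, against 692, 555, 556 and 467 in controls 1 to 4, a 4.51-fold fall (log2 fold change -2.19, SE 0.19, adjusted p = 2.13e-06). Apobec3, a cytidine deaminase that restricts retroviruses, fell 1.87-fold (log2 fold change -0.90, SE 0.084, adjusted p = 4.41e-06). Ly6a, a surface protein, had 12000, 10172, 10890 and 8464 in double knockouts 1 to 4, against 5279, 4652, 4645 and 3910 in controls 1 to 4 and rose 2.25-fold (log2 fold change 1.16, SE 0.11, adjusted p = 6.28e-06). None of these 4 genes had overlapping groups.

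Markers of other cells moved in the same libraries. Of 12 monocyte markers tested, 1 rose (8.33%) and 7 fell (58.3%), beside 22.9% and 23.8% of all tested genes. The values of all 13 summed to 4449 to 5157 in double knockouts and 8378 to 9262 in controls. Of 14 neutrophil markers tested, 11 fell (78.6%, beside 23.8% of all tested genes). The 16 genes of the list summed to 1335 to 1619 in double knockouts and 2715 to 4519 in controls. Ly6g, the defining neutrophil marker, was at 0 in all double knockouts and at 1.0 or 0 in all controls. The part of these cells in the changes of the interferon-stimulated genes was not tested. Of the markers of plasmacytoid dendritic cells, which are known as strong interferon producers, Siglech had 0, 0, 4.0 and 0 in double knockouts 1 to 4, against 0, 0, 2.2 and 3.9 in controls 1 to 4, and Klk1 was at 0 in all 8 libraries. Of 6 genes of that list that passed the filter, 3 rose and 1 fell. Cox6a2 had 105, 80.4, 103 and 104 in double knockouts 1 to 4, against 4.9, 12.6, 20.0 and 7.7 in controls 1 to 4 (log2 fold change 3.16, SE 0.37, adjusted p = 3.18e-05), Il3ra and Tcf4 rose as well (1.29 and 0.49 on the log2 scale), and Runx2 fell (-1.39). The 14 measured genes of the list summed to 13087 to 14235 in double knockouts and 11576 to 12713 in controls, most of it from Irf8, Tcf4 and Lair1, which macrophages also express. The lymphocyte markers Cd3e and Ncr1 were at 0 in all 8 libraries. Of 14 genes of the list, 1 passed the filter and fell (Cd79b), where 23.8% of all tested genes fell. The list summed to 61 to 83 in double knockouts and 130 to 156 in controls. Of 10 markers of conventional dendritic cells, 1 of 2 tested rose, and the list summed to 79 to 128 in double knockouts and 84 to 132 in controls.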

How the data were processed

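Polyadenylated RNA was sequenced in read pairs of 150 bases, per the labels' protocols. Salmon 1.4.0, DESeq2 and build mm10 are named in the submitters' processing notes. The deposited values are a signal: the authors divided each gene's count by 1 size factor per library. Once this was undone, 100% of values in all 8 libraries were whole reads (tolerance 0.01). Neither the annotation release nor the strand setting is known, so overlapping and antisense genes and close copies are uncertain.

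A gene was tested if at least 4 libraries reached a value of 10, which 11675 genes did. limma 3.58.1 in R 4.3.3 compared log2(value + 1) between genotypes, without further terms (two-sided; trend and robust empirical Bayes), and p-values were adjusted by Benjamini-Hochberg over all genes tested, with a threshold of 0.05. Fold changes on this scale understate changes of low genes; folds in words are ratios of mean values. Alternatives included count models on the recovered reads: edgeR 4.0.16 (quasi-likelihood) called 2593 genes as rising and 2786 as falling, and DESeq2 1.42.0 called 2787 and 2891. The pipeline was also run on simulated data, in which libraries were independent and far fewer genes changed than were called here. That run therefore does not show how reliable the calls are. Positions and exon lengths are from GENCODE M21 (mm10). Of 35 RefSeq promoter windows of members, 25 had their last 50 bases in a GENCODE transcript of the gene.

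The replicates were separate libraries: the chi-square per gene was 7.93 to 36.2 over the 12 pairs within groups. Double knockouts 1 and 2 (7.93) and 3 and 4 (9.01) were close pairs and may not be independent. Controls 2 and 3 were nearly as close (9.08) and may not be independent either. The alternative with averaged pairs left the controls apart. The members and all lists were chosen with earlier results of these data known. Values in every library are given for Irf7, Irf9, Usp18, the 5 sensors and, per other role, the 6 or fewer members of smallest adjusted p and the member of highest mean. From each list of other genes, the 4 or fewer of smallest adjusted p are named. Further genes, among them Adgre1, Cmpk2, Ifit2, Isg15, Mx1, Mx2, Sting1, Mavs, Irf3 and Ifit1bl1, were added after their values were seen. Some genes of the lists, and the results that need them, are not reported here.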

Additional observations from a re-analysis of the deposited data

Results flagged for a closer look

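In 6 of 114 groups of 4 libraries, taken over 57 named genes, 1 library lay far from the other 3 (Dixon's criterion at the 95% level); chance flags about 1 in 20 groups. Control 1 was the far library for 3 of them. Ifit2 stood at 6648 in control 1 against 5505 to 5679 in the other controls, Ifit3b at 2036 against 1589 to 1643, and Socs3 at 135 against 37.7 to 49.2. Oas1a stood at 6361 in double knockout 1 against 5550 to 5676 in the other double knockouts. Ifnar2 stood at 3705 in control 4 against 4165 to 4220, and Ikbke at 508 in control 2 against 579 to 585. Control 1 and double knockout 1 were also the libraries in which most of the 38 members were highest within their genotype.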

How the results depend on the processing

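Of the 18 members called, 14 kept their call under all 19 alternatives, and no called member turned its direction. Irf9, Oas1a and Eif2ak2 lost their call with the double knockout pairs averaged (adjusted p = 0.0589, 0.0546 and 0.0504, with ranges over all alternatives of 0.000771 to 0.0589, 0.00337 to 0.0546 and 0.0013 to 0.0504), and Usp18 under 9 alternatives. The members called numbered 13 to 15 higher and 4 to 6 lower when 1 library was left out, with a median log2 fold change between 0.02 and 0.15. Over all tested genes, 2277 to 2616 were then higher and 2392 to 2717 lower. Sign changes when libraries were left out touched members that were not called, and Jak1. Their log2 fold changes over these settings, which include leaving out double knockout 4 and control 1 together (chosen after seeing the data), ran from -0.41 to 0.17 for Mx2, -0.0024 to 0.20 for Irf7, -0.25 to 0.0012 for Zbp1, -0.20 to 0.055 for Herc6, -0.087 to 0.21 for Isg15, -0.10 to 0.057 for Phf11b and -0.12 to 0.057 for Jak1. Without those 2 libraries, 4 of the other interferon-induced members rose, and 1 receptor gene and 1 negative regulator fell. With the pairs averaged, 0 sensors, 1 receptor gene and 1 inducing gene fell, and 1 control gene, 0 receptor genes and 0 negative regulators rose; fewer samples were fitted there. Without a filter, and without the trend and robust options, 1 receptor gene fell, and without the trend and robust options 0 negative regulators rose. Leaving out 1 library gave 1 to 2 other members lower, 1 to 2 receptor genes higher and 1 to 2 lower, 1 to 4 inducing genes lower, and 0 to 1 negative regulators higher. The causes were not tested. Replicate numbers did not pair the libraries: same-numbered libraries had correlations of deviations between -0.0535 and 0.0316, and 0 of 4 double knockouts correlated best with their own number. With the replicate number as a block, 14 members rose and 4 fell, with Usp18 lost (adjusted p = 0.0507) and Oas3 gained (adjusted p = 0.0439), 2215 genes rose and 2434 fell over all, 1 receptor gene fell and 0 negative regulators rose. Depth limits the ligands, at 0 to 5 reads per group.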

Other observations

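Other families of interferon-induced genes were looked at after their values had been seen, and are given as values. In the Schlafen family, Slfn1 and Slfn3 were lower in every double knockout than in every control (-0.48 and -0.61 on the log2 scale, adjusted p = 0.00567 and 0.00835, limma), as was Slfn9, and Slfn4 was lower with overlap (-1.11, adjusted p = 0.0155), whereas Slfn5 was higher and Slfn2 had a log2 fold change of 0.0093 (95% interval -0.14 to 0.16). Of the Trim genes measured, Trim5, Trim12a and Trim12c were higher in every double knockout than in every control (0.81, 0.47 and 0.55, adjusted p = 1.55e-05, 0.00253 and 0.000141). Trim34a was higher with overlap (0.29, adjusted p = 0.0187), and Trim14, Trim30b, Trim30c and Trim30d did not pass (-0.096, 0.38, -0.23 and 0.0056). Trim21, a cytosolic antibody receptor, was lower (log2 fold change -0.51, SE 0.085, adjusted p = 0.000461). Of the p200 family, whose members bind DNA, Ifi204 and Ifi211 were higher without overlap (0.48 and 0.55, adjusted p = 0.00041 and 0.000295), and Ifi205 was lower with overlap (-0.34, adjusted p = 0.0152). Ifi203, Ifi207, Ifi209, Ifi213 and Mndal did not pass (0.026, -0.062, 0.11, 0.22 and -0.38). Members of each of these families are alike in sequence, so the division of reads among them is uncertain.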
